A study of Taeniopygia guttata with 2 samples.

Results

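The microglia of Area X, the song nucleus of the zebra finch striatum, were the 249 nuclei that the deposited joint clustering placed in cluster 22, of 27245 nuclei and 23 clusters in all. The cluster was taken as deposited and carries CSF1R, the receptor on which microglia depend for survival, as its marker. The library labelled shFoxP2 held 65 of these nuclei and the shScr library held 184. Each library was compared with its own other clusters, because there was 1 library per condition and the libraries could not be tested against each other.

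Microglia are the resident macrophages of the brain. They descend from yolk sac progenitors rather than from the neural lineage, survey the tissue with motile processes, sense nucleotides released by damaged cells, and engulf debris and synapses that are tagged by complement. Their identity is held by signalling through CSF1R and the TGF-beta receptors and by the transcription factors PU.1 (SPI1), IRF8, RUNX1 and SALL1, as known from mice.

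Nuclei came from Area X punches of adult male zebra finches (Taeniopygia guttata), whose labels give an age of 160 to 185 days post hatch, while the study's methods give an older range at tissue collection. An AAV carried a Cre-switch hairpin cassette into Area X, either against FoxP2 (CS-shFoxP2) or scrambled (CS-shScr). Cre turns the hairpin off, and no Cre was given in either condition. Each library pooled 4 hemispheres of 2 birds kept on a shifted light cycle and taken before lights came on, so that birds within a library were not separated. The labels describe the cell type as striatal projection neurons, whereas all nuclei were sequenced. The cassette is driven by a ubiquitous promoter, and which nuclei carried the virus was not determined here.

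The library labelled shFoxP2 held 12956 nuclei and 42662731 UMIs (unique molecular identifiers, each standing for 1 captured transcript), and the shScr library held 14289 nuclei and 39179294 UMIs. Depth per nucleus ran between 500 and 9997 UMIs, with medians of 2871 UMIs in the library labelled shFoxP2 and 2300 UMIs in the shScr library. In nuclear RNA summed over nuclei, infected or not, with intron reads counted, the targeted gene was not lower in the library labelled shFoxP2. Outside the microglia, FOXP2 stood at 5.03 UMIs per 10000 there and at 4.32 in the shScr library, so the condition is given as its label throughout. The study measured its knockdown as FoxP2 protein, in infected cells of Area X and in cell culture, which these sums do not measure. The libraries shared 47 barcodes, 3 of them among microglia. Levels below are summed UMIs of a gene per 10000 summed UMIs of the same nuclei. Their 95% intervals (exact Poisson for levels, exact binomial for ratios and shares) cover counting error only, not differences between birds or preparations.

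Microglia made up 0.502% of nuclei (0.387 to 0.639) in the library labelled shFoxP2 and 1.29% (1.11 to 1.49) in the shScr library. Clusters with a raised marker of glia, vessels or blood were counted as outside the neurons. Cluster 7 was counted so by LRIG1, an astrocyte marker of the study. Yet its summed level of pan-neuronal genes was 250 per 10000 in the library labelled shFoxP2 and 248 in the shScr library. In the library labelled shFoxP2, 2308 nuclei lay outside the neuron clusters so counted, and microglia were 2.82% of them (2.18 to 3.58). In the shScr library microglia were 8.07% (6.98 to 9.26) of 2281 such nuclei. The intervals did not overlap on either denominator. Among nuclei under 2000 UMIs they did. Microglia made up 35 of 1686 such nuclei (2.08%, 1.45 to 2.88) in the library labelled shFoxP2. In the shScr library they made up 126 of 4322 (2.92%, 2.43 to 3.46). Other nuclei under 2000 UMIs had a median pan-neuronal level of 82.3 per 10000 in the library labelled shFoxP2 and 261 in the shScr library. These denominators were unlike, so the overlap does not show equal shares at matched depth. When only microglia of 2000 or more UMIs were left out of all nuclei, the intervals did not overlap. The shares were then 0.271% in the library labelled shFoxP2 and 0.885% in the shScr library. With 1 library of pooled birds on each side, the hairpin, the birds and the preparation cannot be told apart. The authors also clustered the shScr library on its own. All 174 nuclei of cluster 16 in that clustering were in the joint microglia cluster and made up 94.6% of its shScr nuclei, and the other 10 lay in clusters 4, 6, 7 and 9 of that clustering.

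The label was checked against 17 microglial identity genes, of which 14 had a row in the table. Their summed level was 13.7 UMIs per 10000 (11.9 to 15.7) in the microglia against 0.328 in all other clusters in the library labelled shFoxP2. It was 24.2 (22.6 to 26.0) against 0.386 in the shScr library. CSF1R is itself on the list, and without it the level was 12.1 against 0.326 in the library labelled shFoxP2 and 21.8 against 0.379 in the shScr library. The cluster had been drawn on the same counts, so these levels describe it and are not independent of its name. At least 1 identity UMI was found in 52 of 65 nuclei (80.0%, 68.2 to 88.9) in the library labelled shFoxP2, where 9.42% of the nuclei of all other clusters and 3.49% of those of the red blood cell cluster had one. The shares were 152 of 184 nuclei (82.6%, 76.3 to 87.8) in the microglia of the shScr library, 9.27% in its other clusters and 7.93% in its red blood cell cluster. Of the single clusters after the microglia, cluster 7 and the astrocyte cluster (6) had the highest shares, 31.3% and 27.0% in the library labelled shFoxP2 and 25.3% and 22.8% in the shScr library. Median depth was 1155 UMIs in the microglia against 2873 in the rest in the library labelled shFoxP2, and 854.5 against 2306 in the shScr library. The red blood cell cluster had medians of 630 and 659 UMIs in these libraries, lower than the microglia.

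Some markers used for mammalian microglia were sparse or not seen. TMEM119 had 2 UMIs in the microglia of the library labelled shFoxP2 and 8 in those of the shScr library. OLFML3 had none in either. Nuclei with no identity UMI, 13 in the library labelled shFoxP2 and 32 in the shScr library, stayed in all sums.

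The leading genes were those of macrophage identity and of blood cell signalling. Of 3313 genes that could be measured in the library labelled shFoxP2, 377 (11.4%) were at least 2-fold higher and 133 (4.01%) at least 2-fold lower in microglia than in all other clusters. In the shScr library 873 of 6038 genes (14.5%) were at least 2-fold higher and 224 (3.71%) at least 2-fold lower. Of the 3283 genes measured in both libraries, 241 were higher in both, 73 of them at least 10-fold. Because the cluster had been drawn on these genes, the folds describe it and are not tests. A gene counted as measured with at least 10 UMIs in the microglia, or with 10 expected there from its level in the rest. Of the genes at least 2-fold higher only 47 in the library labelled shFoxP2 and 219 in the shScr library had 10 expected, and the others could be measured only because they were high in the microglia.

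**Figure D1:**
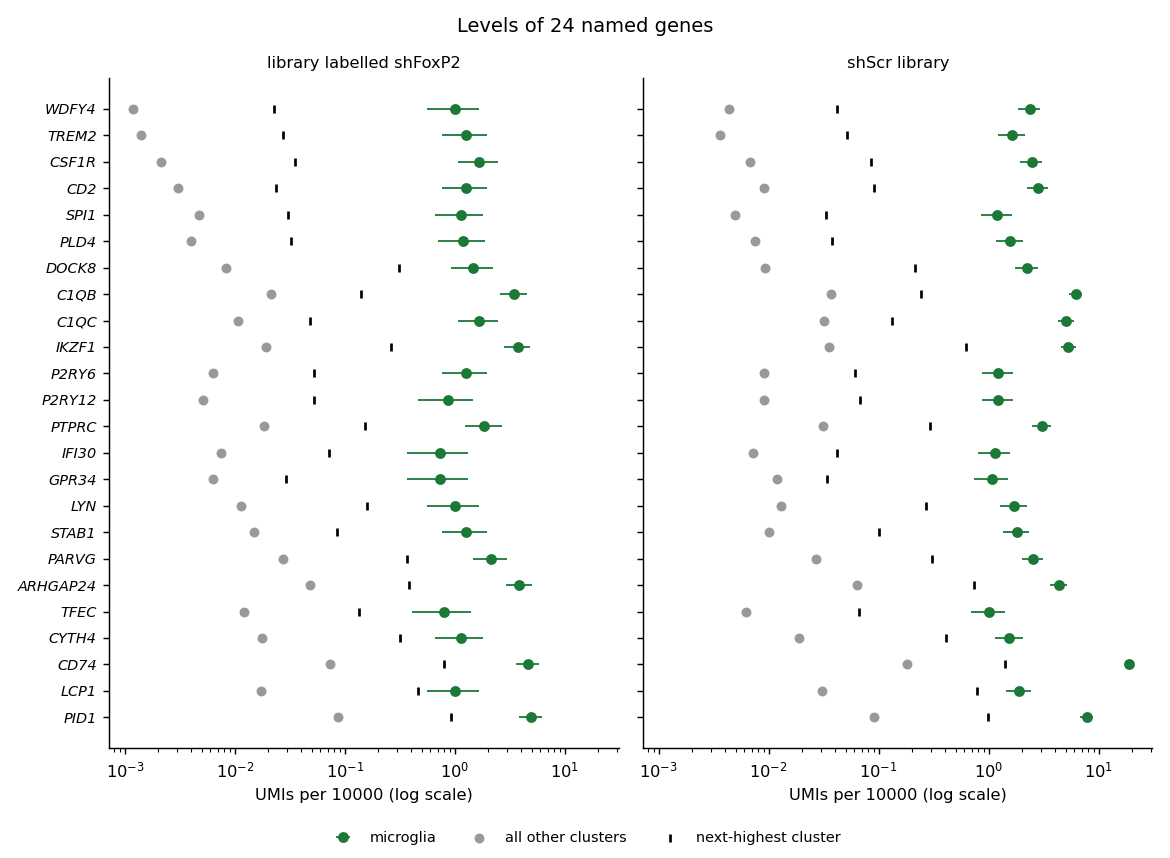
Levels of 24 genes named by their fold over the rest, in UMIs per 10000 on a log axis, for the library labelled shFoxP2 (left) and the shScr library (right). Green points are microglia with 95% Poisson intervals, grey points are all other clusters together, and black ticks are the next-highest single cluster. The microglia were the highest cluster for 24 of 24 genes in both libraries, by as little as 2.14-fold over the next cluster for LCP1 in the library labelled shFoxP2 and up to 56.2-fold for WDFY4 in the shScr library.

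CSF1R had 25 UMIs in the microglia of the library labelled shFoxP2 (1.66 per 10000) against 0.00212 per 10000 in its other clusters, a 784-fold difference (354 to 1909). It had 78 UMIs (2.45 per 10000) in the microglia of the shScr library against 0.00669, a 367-fold difference (232 to 595). A CSF1R UMI was found in 32.3% of microglia (21.2 to 45.1) in the library labelled shFoxP2 and in 29.9% (23.4 to 37.1) in the shScr library. In all other clusters 0.0698% of nuclei had one in the library labelled shFoxP2 and 0.163% in the shScr library. None of the red blood cell nuclei did, of which there were 373 in the library labelled shFoxP2 and 328 in the shScr library. After thinning every nucleus to 500 UMIs, CSF1R was seen in 12.3% of microglia in the library labelled shFoxP2 and in 16.3% in the shScr library. Most microglia nuclei thus carried no CSF1R UMI at this depth.

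The ligands of CSF1R were not seen in the microglia and had few UMIs elsewhere. IL34 had 0 UMIs in the microglia of both libraries, with upper limits of 0.245 per 10000 in the library labelled shFoxP2 and 0.116 in the shScr library. Its highest level in the library labelled shFoxP2 was 0.389 per 10000 (17 UMIs) in cluster 15, whose markers are endothelial. In the shScr library it was 0.253 (9 UMIs) in cluster 20, also outside the neurons, with an interval that overlapped those of clusters 6 and 15. CSF1 had 0 UMIs in the microglia and at most 2 in any cluster of either library. Cluster 15 also led for CX3CL1, the ligand of the microglial receptor CX3CR1, with 0.893 per 10000 in the library labelled shFoxP2 and 0.806 in the shScr library. CX3CR1 itself had 9 UMIs in the microglia of the library labelled shFoxP2 (0.598 per 10000) and 25 in those of the shScr library (0.786), at or below 0.045 in every other cluster.

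Purine receptors, ion channels and ectoenzymes, taken as 1 list, were higher in the microglia when summed. The 8 with a row summed to 6.04 UMIs per 10000 (4.86 to 7.42) against 1.33 in the rest of the library labelled shFoxP2, and to 7.92 (6.97 to 8.96) against 1.41 in the shScr library. P2RY12, the ADP receptor that guides microglial processes, stood at 0.863 per 10000 in microglia against 0.00517 in the rest of the library labelled shFoxP2, and at 1.23 against 0.00901 in the shScr library. P2RY6, a UDP receptor linked to phagocytosis, was at 1.26 against 0.00635 in the library labelled shFoxP2 and at 1.23 against 0.00901 in the shScr library. GPR34, an identity gene and a receptor for lysophosphatidylserine, was 115-fold higher (51.5 to 240) in the library labelled shFoxP2 and 90.3-fold higher (56.2 to 144) in the shScr library. The potassium channel KCNK13, the proton channel HVCN1 and the ectonucleotidase ENTPD1 also had at least 10 UMIs in both libraries, and P2RY13 in the shScr library. HVCN1 in the shScr library was the only one that would have been measured from its level in the rest.

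TREM2, a lipid-sensing receptor that triggers engulfment, had 19 UMIs in the library labelled shFoxP2 (894-fold over the rest, 343 to 2734) and 52 UMIs in the shScr library (454-fold, 248 to 887). The 3 chains of complement C1q, which tags material for removal, were all present. C1QB had the most UMIs of the 3, a count not scaled for gene length, with 3.45 per 10000 in microglia against 0.0214 in the rest of the library labelled shFoxP2, and 6.16 against 0.0365 in the shScr library. C1QC stood at 1.66 against 0.0106 in the library labelled shFoxP2 and at 5.06 against 0.0317 in the shScr library, and C1QA at 0.730 and 1.54 per 10000 in the microglia of these libraries. A UMI of C1q or CSF1R was found in 41 of 65 nuclei (63.1%, 50.2 to 74.7) in the library labelled shFoxP2 and in 130 of 184 (70.7%, 63.5 to 77.1) in the shScr library.

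The 12 myeloid transcription factors summed to 26.4 per 10000 (23.9 to 29.2) against 9.12 in the rest of the library labelled shFoxP2, and to 32.1 (30.1 to 34.1) against 9.85 in the shScr library. MAF was lower in both. SPI1, which encodes PU.1, was 240-fold higher (118 to 482) in the library labelled shFoxP2 and 244-fold higher (137 to 449) in the shScr library. RUNX1 had 68 UMIs (4.51 per 10000) against 0.0670 in the rest of the library labelled shFoxP2, and 176 UMIs (5.53) against 0.117 in the shScr library. IKZF1 (Ikaros), a zinc finger factor of blood cells, was at 3.72 against 0.0191 in the library labelled shFoxP2 and at 5.31 against 0.0353 in the shScr library. FLI1, an ETS family factor, was 28.5-fold higher in the library labelled shFoxP2 and 38.5-fold higher in the shScr library.

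SALL1 and MEF2C were shared with other clusters. SALL1, which maintains microglial identity in mice, stood at 1.86 per 10000 in microglia and 1.504 in the astrocyte cluster (6) of the library labelled shFoxP2, intervals that overlapped (1.24 to 2.69 and 1.30 to 1.73). They did not overlap in the shScr library, at 2.99 (2.42 to 3.65) and 1.28 (1.06 to 1.54). MEF2C, a factor of both neurons and microglia, was at 9.83 against 4.07 in the rest of the library labelled shFoxP2 and at 10.1 against 4.54 in the shScr library, and the neuron cluster 9 was higher than microglia by point estimate in both. MAF, a factor of interneurons and of macrophages, stood at 0.199 against 1.79 in the library labelled shFoxP2 and at 0.723 against 1.57 in the shScr library.

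Genes of blood cell signalling and of the cytoskeleton were higher in the microglia when summed. The 25 with a row were at 37.1 per 10000 (34.1 to 40.3) against 12.3 in the rest of the library labelled shFoxP2 and at 57.2 (54.6 to 59.8) against 12.8 in the shScr library. ELMO1 made up most of the sum in the rest, and most measured members reached the minimum only through their UMIs in the microglia. DOCK8, an activator of the small GTPase CDC42, was 177-fold higher (99.1 to 311) in the library labelled shFoxP2 and 241-fold higher (159 to 371) in the shScr library. PTPRC (CD45), the phosphatase of all white blood cells, had 28 UMIs (1.86 per 10000) against 0.0183 in the rest of the library labelled shFoxP2, and 97 UMIs (3.05) against 0.0314 in the shScr library. LYN, a Src family kinase, was at 0.996 against 0.0113 in the library labelled shFoxP2 and at 1.70 against 0.0129 in the shScr library. ELMO1, an engulfment adaptor, stood at 16.1 against 9.54 in the library labelled shFoxP2 and at 25.6 against 10.3 in the shScr library, a smaller fold of 1.69 and 2.49. The oligodendrocyte cluster (8) came next for ELMO1, at 14.7 in the library labelled shFoxP2 and 18.2 in the shScr library.

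The other named genes included WDFY4, which serves antigen cross-presentation in mammals, at 847-fold (293 to 2978) in the library labelled shFoxP2 and 539-fold (315 to 974) in the shScr library. PLD4, an endolysosomal nuclease, was 299-fold higher in the library labelled shFoxP2 and 211-fold higher in the shScr library. ARHGAP24, a Rac GTPase-activating protein, stood at 3.85 per 10000 against 0.0485 in the library labelled shFoxP2 and at 4.34 against 0.0636 in the shScr library. PID1, an adaptor of LRP receptors, was at 4.91 against 0.0870 in the library labelled shFoxP2 and at 7.77 against 0.0903 in the shScr library. IFI30, a lysosomal thiol reductase, PARVG, LCP1 and CYTH4, which act on adhesion and the cytoskeleton, and TFEC, a factor of the MITF family, were between 58.0-fold and 163-fold higher over both libraries.

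The 17 phagocytosis and lysosome genes with a row summed to 19.5 per 10000 (17.4 to 21.9) against 9.21 in the rest of the library labelled shFoxP2, and to 25.6 (23.8 to 27.4) against 10.5 in the shScr library. Of those with 10 UMIs expected, 1 of 4 was at least 2-fold higher in the library labelled shFoxP2 and 3 of 8 in the shScr library, and none was lower. Over all genes with 10 UMIs expected, 47 of 2518 were higher and 133 lower in the library labelled shFoxP2. In the shScr library 219 of 4659 such genes were higher and 224 lower. Cathepsin B (CTSB) stood at 4.98 per 10000 against 1.66 in the library labelled shFoxP2 and at 5.25 against 2.27 in the shScr library. Cathepsin Z (CTSZ) was 13.1-fold higher in the library labelled shFoxP2 and 17.98-fold higher in the shScr library. MERTK, a receptor for apoptotic cells, was 10.9-fold higher in the library labelled shFoxP2 and 8.92-fold higher in the shScr library. The microglia had less MERTK than the astrocyte cluster by point estimate, at 2.06 per 10000 against 2.31 in the library labelled shFoxP2 and at 2.11 against 3.42 in the shScr library. LYZ, the lysozyme of phagocytes, had 0 UMIs in the microglia of both libraries.

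CD74, the invariant chain that escorts class II molecules in antigen presentation, was the leading gene of its group. It had 69 UMIs (4.58 per 10000) in the microglia of the library labelled shFoxP2 against 0.0727 in its rest, and 604 UMIs (19.0) against 0.181 in the shScr library. At least 1 CD74 UMI was found in 58.5% of microglia (45.6 to 70.6) in the library labelled shFoxP2 and 77.2% (70.42 to 83.03) in the shScr library, while in the red blood cell cluster 2.41% of nuclei had one in the library labelled shFoxP2 and 4.57% in the shScr library. B2M, the light chain of class I molecules, had 9 UMIs in the library labelled shFoxP2 and 23 in the shScr library, and CIITA, the class II transactivator, 2 in the library labelled shFoxP2 and 10 in the shScr library.

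The TGF-beta receptor TGFBR2, through which microglial identity is kept in mice, stood at 2.46 against 0.170 in the library labelled shFoxP2 and at 2.14 against 0.154 in the shScr library. The astrocyte cluster had a similar level, 2.40 in the library labelled shFoxP2 and 2.43 in the shScr library. TGFB2, its ligand, had 2 UMIs in microglia in the library labelled shFoxP2 and 11 in the shScr library, and was highest in the neuron cluster 14, at 3.78 in the library labelled shFoxP2 and 3.92 in the shScr library. LY86, a partner of a Toll-like receptor family member, was 61.4-fold higher in the library labelled shFoxP2 and 66.2-fold higher in the shScr library, and CD14, the lipopolysaccharide co-receptor, had no UMI in any nucleus of either library.

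Genes that mark activated or dividing microglia had few UMIs. Of 12 genes of activated microglia 6 had a row, and APOE, ITGAX, CLEC7A, CCL4, NLRP3 and TNF did not. Their summed level was 0.398 per 10000 (0.146 to 0.867) in microglia against 0.361 in the rest of the library labelled shFoxP2, and 0.409 (0.218 to 0.699) against 0.396 in the shScr library. These levels were close to those of the rest, and their upper limits lay above it, so the counts do not show a resting state. SPP1 (osteopontin) and CD9 had no UMI in microglia, and IL1B had 0 UMIs in the library labelled shFoxP2 and 1 in the shScr library. The 6 proliferation genes had 0 UMIs together in the library labelled shFoxP2 and 3 in the shScr library, so cycling was not detectable at this depth.

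Other blood cells and border macrophages were looked for by their own markers. Among the border macrophage genes, MRC1 and CD163 had no row and could not be looked for. LYVE1 and SIGLEC1 had no UMI in microglia and F13A1 had 3 in the library labelled shFoxP2 and 7 in the shScr library. STAB1, a scavenger receptor, was at 1.26 against 0.0148 in the library labelled shFoxP2 and at 1.79 against 0.0100 in the shScr library. Of 5 granulocyte and thrombocyte genes with a row, 0 could be measured in the library labelled shFoxP2 and 1 in the shScr library. That gene was at least 2-fold higher and reached the minimum only through its UMIs in the microglia. The 13 lymphocyte genes with a row summed to 41 UMIs (2.72 per 10000, 1.95 to 3.69) against 0.0920 in the rest of the library labelled shFoxP2, and to 167 UMIs (5.25, 4.48 to 6.11) against 0.0708 in the shScr library. CD2 supplied 19 of these UMIs in the library labelled shFoxP2 and 89 in the shScr library, and without it the sums were 22 (1.46 per 10000, 0.915 to 2.21) and 78 (2.45, 1.94 to 3.06). Leaving out CD2 and CD4, 5 nuclei of the library labelled shFoxP2 and 17 of the shScr library had at least 2 lymphocyte UMIs.

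These nuclei had no CSF1R UMI. They held 0 C1q UMIs in the library labelled shFoxP2 and 2 in the shScr library, but 6 UMIs of the white blood cell gene PTPRC in the library labelled shFoxP2 and 29 in the shScr library. CD3E, a chain of the T cell receptor complex, is itself on the list that picked these nuclei, so its counts in them are not independent of that choice. It had 4 of its 6 microglia-cluster UMIs in them in the library labelled shFoxP2 and 19 of its 24 in the shScr library. PAX5 and CD79B, genes of B cells, are on the same list. At least 2 of their UMIs were found in 3 of these nuclei in the shScr library and in 0 in the library labelled shFoxP2. The 3 held 26 of the 38 CD74 UMIs of the 17 nuclei. Among nuclei with at least 2 lymphocyte UMIs, those of the library labelled shFoxP2 had a median of 2913 UMIs, and 15 of the 17 of the shScr library had under 2000. Without these nuclei 349 of 3067 genes (11.4%) were at least 2-fold higher in the microglia in the library labelled shFoxP2. In the shScr library 723 of 5697 (12.7%) were. Fewer genes could be measured without them.

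CD2, an adhesion molecule of T cells in mammals, had 19 UMIs in the library labelled shFoxP2 (413-fold over the rest, 193 to 909) and 89 in the shScr library (311-fold, 208 to 473). Nuclei with a C1q UMI carried CD2 in 10 of 35 cases in the library labelled shFoxP2 and in 53 of 122 in the shScr library. Nuclei without a C1q UMI carried it in 4 of 30 cases in the library labelled shFoxP2 and in 13 of 62 in the shScr library. By lymphocyte UMIs other than those of CD2 and CD4, 2 of 5 nuclei with at least 2, 3 of 6 with 1 and 9 of 54 with none carried CD2 in the library labelled shFoxP2. These shares were 3 of 17, 4 of 17 and 59 of 150 in the shScr library.

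The microglia were divided into 2 sets by depth, and neuronal RNA moved with depth. Under 2000 UMIs lay 35 nuclei (53.8%) of the library labelled shFoxP2, and 30 had 2000 or more. The shScr library had 126 (68.5%) and 58. The line at 2000 UMIs was placed after the nuclei had been seen. Between 1500 and 2500 UMIs lay 9 nuclei of the library labelled shFoxP2, 7 of them past the line. In the shScr library 18 lay there, 15 of them past the line, so these counts show no gap at the line itself.

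**Figure D2:**
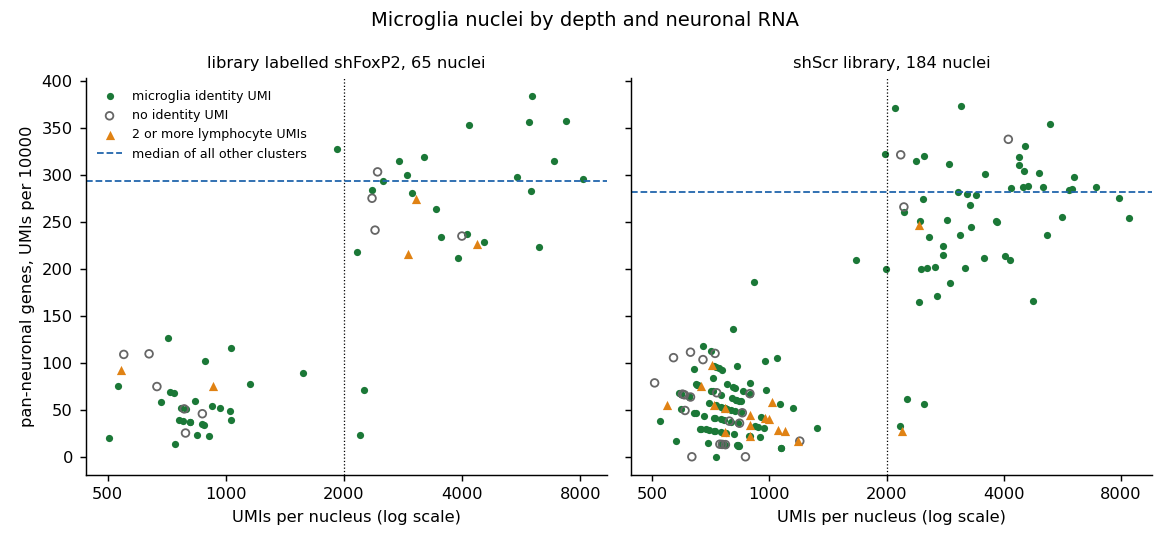
Each point is 1 microglia nucleus of the library labelled shFoxP2 (left) or the shScr library (right), by its UMIs (log axis) and the summed level of 8 pan-neuronal genes in UMIs per 10000. Filled green points carry a microglial identity UMI, open points carry none, orange triangles have 2 or more lymphocyte UMIs, and the dashed line is the median of all other clusters (294 in the library labelled shFoxP2, 282 in the shScr library). Nuclei under 2000 UMIs lie mostly below 100, and deeper ones mostly between 150 and 400.

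Nuclei of 2000 or more UMIs had a median pan-neuronal level of 279 per 10000 in the library labelled shFoxP2 and 264 in the shScr library, close to the 294 and 282 of all other clusters in these libraries. Nuclei under 2000 UMIs had 51.9 in the library labelled shFoxP2 and 50.9 in the shScr library. The divide was not complete. Past the line 2 nuclei of the library labelled shFoxP2 had a level below 100 and 4 of the shScr library did, all at or below 2489 UMIs, while under the line 1 nucleus exceeded 150 in the library labelled shFoxP2 and 4 did in the shScr library. Identity UMIs per nucleus averaged 3.34 in the shallow and 3.00 in the deep nuclei of the library labelled shFoxP2, and 3.79 and 5.07 in those of the shScr library. The mitochondrial share had a median of 3.16% in the shallow and 0.733% in the deep nuclei of the library labelled shFoxP2, and 2.46% and 0.708% in those of the shScr library. The pan-neuronal level over summed UMIs also exceeded the median per nucleus in other clusters outside the neurons. For oligodendrocytes, endothelial cells and red blood cells of the library labelled shFoxP2 it was 177 against 58.1, 185 against 73.7 and 184 against 87.8. In the shScr library these were 156 against 52.5, 167 against 81.3 and 164 against 77.9. The microglia had 238 against 109 and 196 against 67.3 in these libraries, and the astrocyte cluster 88.8 against 73.2 and 105 against 86.4.

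Of the deep nuclei, 25 of 30 in the library labelled shFoxP2 and 54 of 58 in the shScr library carried an identity UMI, so microglial and neuronal transcripts were counted under the same barcodes. Doublet scores placed 1 of them in the top 8% in the library labelled shFoxP2 and 5 in the shScr library. Of these deep nuclei 4 in the library labelled shFoxP2 and 8 in the shScr library lay away from the main group of the cluster on the deposited map. Whether the deep barcodes held a neuron beside a microglia nucleus was not tested.

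**Figure D3:**
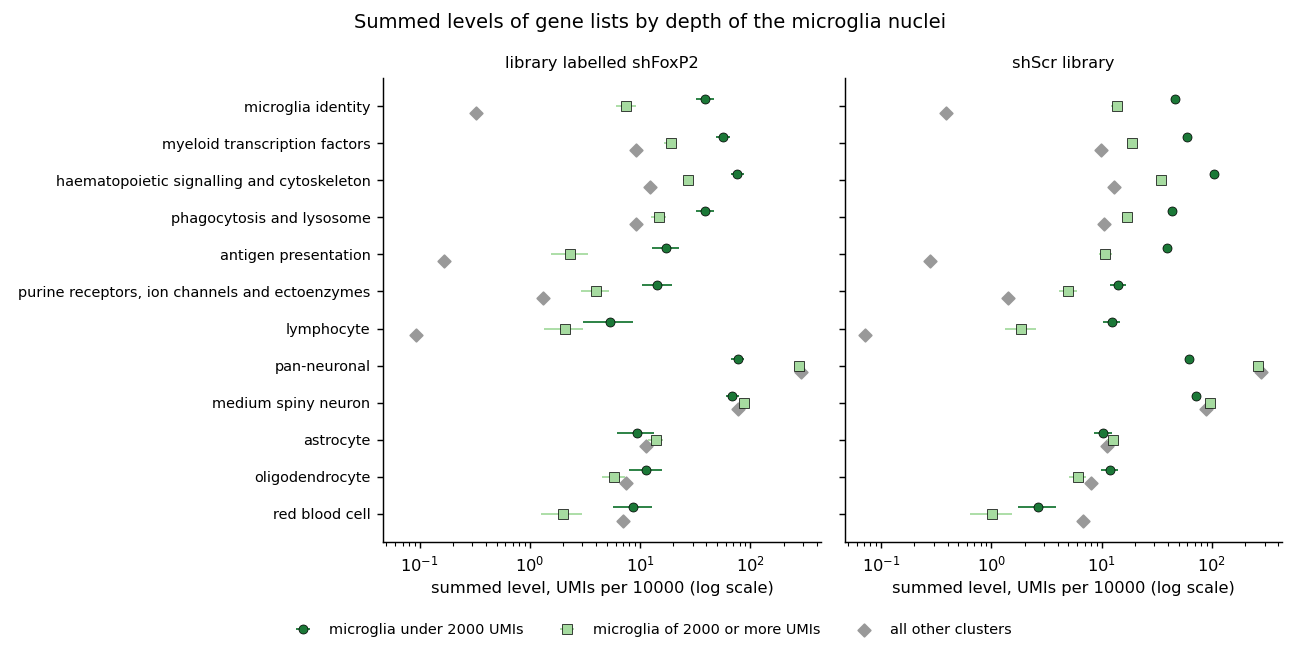
Summed level of 12 gene lists in UMIs per 10000 on a log axis, in the library labelled shFoxP2 (left) and the shScr library (right). Dark circles are microglia under 2000 UMIs, light squares microglia of 2000 or more, both with 95% Poisson intervals, and grey diamonds all other clusters. Identity genes stood at 39.0 in the shallow and 7.46 in the deep nuclei of the library labelled shFoxP2, and at 46.4 and 13.7 in those of the shScr library, while pan-neuronal genes ran the other way.

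Set against all other clusters at every depth, the shallow nuclei showed the cluster's profile with less neuronal RNA. In the library labelled shFoxP2 279 of 803 genes (34.7%) were at least 2-fold higher and 298 (37.1%) lower in them, and in the shScr library 1238 of 3134 (39.5%) and 621 (19.8%). In the deep nuclei the shares were 6.26% higher and 4.2% lower in the library labelled shFoxP2, and 6.19% and 4.52% in the shScr library. The median log2 fold of all genes measured in the shallow nuclei was -0.14 in the library labelled shFoxP2 and 0.62 in the shScr library. Here too a gene could be measured only through being high in the nuclei compared, and these folds do not separate cell type from depth. Phagocytosis and lysosome genes summed to 38.7 per 10000 (32.0 to 46.4) in the shallow nuclei of the library labelled shFoxP2 and to 43.7 (39.7 to 47.9) in those of the shScr library. CTSB stood at 12.01 per 10000 (8.41 to 16.6) in the shallow nuclei of the library labelled shFoxP2 and at 8.85 (7.12 to 10.9) in those of the shScr library. PSAP, the saposin precursor, had intervals that overlapped those of the shallow red blood cells, at 10.3 (7.03 to 14.7) in the shallow microglia against 8.22 (7.04 to 9.54) in the library labelled shFoxP2 and at 12.1 (10.03 to 14.4) against 11.4 (10.02 to 13.02) in the shScr library. Of the pan-neuronal genes 7 of 7 were at least 2-fold lower in the library labelled shFoxP2 and 6 of 8 in the shScr library, none of which passed 2-fold in either library over all nuclei of the cluster.

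FOXP1, a transcription factor that also marks striatal medium spiny neurons, was abundant in the shallow nuclei. It stood at 34.7 per 10000 (28.3 to 42.0) in those of the library labelled shFoxP2 and at 29.2 (26.0 to 32.7) in those of the shScr library. Of the shallow nuclei of other clusters in the library labelled shFoxP2, the red blood cells had 7.46, the astrocytes 2.92 and the endothelial cells 17.9. In the shScr library, these had 7.85, 2.00 and 20.2. RBFOX1, a splicing factor of neurons, was at 21.0 (16.2 to 26.9) in the shallow microglia and 22.9 in the shallow red blood cell nuclei of the library labelled shFoxP2, and at 15.8 (13.4 to 18.4) and 25.6 in the shScr library. FOXP1 in shallow microglia thus exceeded its level in the red blood cell cluster, and RBFOX1 did not. FOXP2 was at 1.00 per 10000 in the shallow microglia in the library labelled shFoxP2 and at 1.07 in the shScr library.

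**Figure D4:**
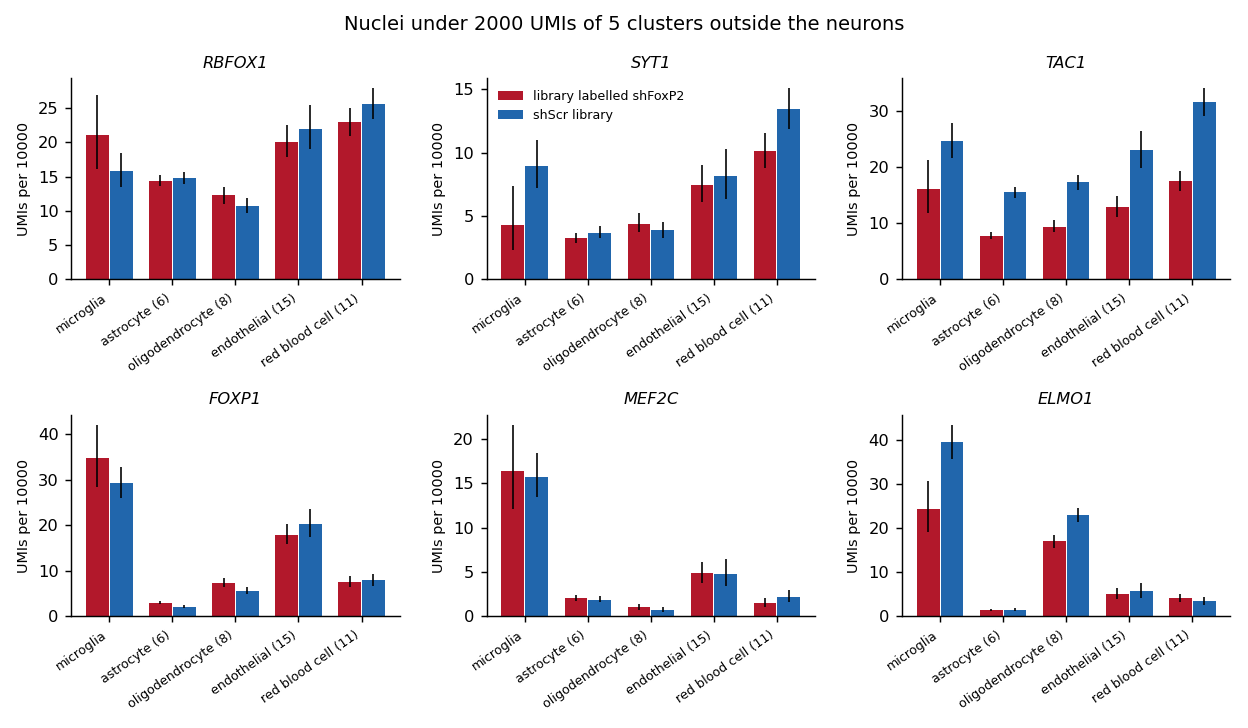
Levels of 6 genes in nuclei under 2000 UMIs of the microglia and of 4 other clusters outside the neurons, in UMIs per 10000 with 95% Poisson intervals. Red bars are the library labelled shFoxP2 and blue bars the shScr library. RBFOX1, SYT1 and TAC1 in microglia lay at or below their levels in the red blood cell cluster, and FOXP1, MEF2C and ELMO1 above them.

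MEF2C and ELMO1 behaved like FOXP1. MEF2C was at 16.3 per 10000 in the shallow microglia of the library labelled shFoxP2 and 15.8 in those of the shScr library, against at most 4.85 in the shallow nuclei of the other 4 clusters. ELMO1 was at 24.4 in the shallow microglia against 17.0 in the shallow oligodendrocytes, the next cluster, in the library labelled shFoxP2, and at 39.4 against 22.9 in the shScr library. TAC1, the substance P precursor of medium spiny neurons, stood at 16.01 in the shallow microglia against 17.4 in the shallow red blood cells in the library labelled shFoxP2 and at 24.6 against 31.5 in the shScr library. The myelin gene MBP was at 9.67 against 4.87 in the library labelled shFoxP2 and at 9.14 against 6.51 in the shScr library.

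The 5 genes named as lowest in the microglia are known from interneurons and other neurons. NXPH1, a neurexin ligand, had 4 UMIs (0.266 per 10000) against 3.43 in the rest of the library labelled shFoxP2 and 6 UMIs (0.189) against 2.75 in the shScr library. ERBB4, the neuregulin receptor of interneurons, was at 3.25 against 10.2 in the library labelled shFoxP2 and at 1.82 against 7.91 in the shScr library. PTPRG and CDH13, a receptor phosphatase and a cadherin, and PPARGC1A, a coactivator of mitochondrial genes, were also lower, with ratios between 0.113 and 0.313. The alpha globin gene HBAA stood at 2.26 against 5.77 in the library labelled shFoxP2 and at 1.01 against 5.68 in the shScr library. For HBAA the rest was led by the red blood cell cluster (11), at 451 and 522 per 10000 in these libraries. Among single clusters the microglia ranked 8 for HBAA in the library labelled shFoxP2 and 12 in the shScr library. Single clusters also stood far above the rest for genes named as lowest. NXPH1 was at 36.3 in cluster 14 of the library labelled shFoxP2 and at 36.9 in that of the shScr library.

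Within the microglia, 36 of 1893 genes (1.9%) were at least 2-fold higher and 67 (3.54%) at least 2-fold lower in the library labelled shFoxP2 than in the shScr library. Among the shallow nuclei alone 4 of 409 genes (0.978%) were higher and 19 (4.65%) lower. These ratios compare 2 libraries, not 2 conditions. CD74 had the lowest ratio of the genes with a symbol, a log2 ratio of -2.05 (-2.43 to -1.69). In the other clusters its ratio was -1.31 (-1.51 to -1.12), and among the shallow microglia -1.30. C1QC was at -1.61 within microglia and -1.58 outside, C1QB at -0.84 and -0.77, and CSF1R at -0.56 (-1.27 to 0.10) and -1.66. Several microglial genes were thus also lower among the other nuclei of the library labelled shFoxP2, where microglia nuclei were also fewer. The part of the one in the other was not tested. Among the shallow microglia C1QC was at -1.11 (-2.07 to -0.26), C1QB at -0.17 (-0.76 to 0.40) and CSF1R at -0.14 (-1.14 to 0.77).

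**Figure D5:**
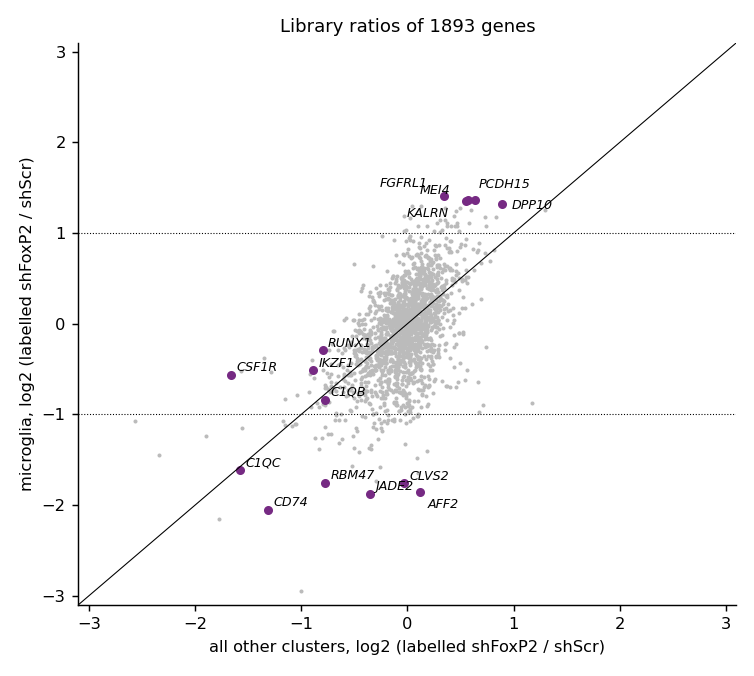
Log2 ratio of the library labelled shFoxP2 over the shScr library for 1893 genes, in the other clusters (horizontal axis) and in the microglia (vertical axis). Dotted lines mark 2-fold, the diagonal marks equal ratios, and purple points are named genes. CD74 and C1QC are low on both axes, and AFF2 and CLVS2 are low on the vertical axis and near 0 on the horizontal one, at -1.85 and -1.76 against 0.12 and -0.03. Among the shallow microglia the ratio of AFF2 was -2.49 (-4.81 to -0.88), while that of CLVS2 was -0.39 (-3.64 to 1.88).

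AFF2, a nuclear protein of the FMR2 family, had 13 UMIs (0.863 per 10000, 0.460 to 1.48) in the microglia of the library labelled shFoxP2 and 99 UMIs (3.11, 2.53 to 3.79) in those of the shScr library. Its level in the other clusters was 2.15 in the library labelled shFoxP2 and 1.97 in the shScr library. CLVS2 rested on 7 UMIs, 2 of them in shallow nuclei, in the microglia of the library labelled shFoxP2, and on 50, 9 of them in shallow nuclei, in those of the shScr library. JADE2, a subunit of a histone acetyltransferase complex, had a log2 ratio of -1.88 in microglia and -0.35 outside, and RBM47, an RNA-binding protein, -1.75 and -0.78. The highest ratios belonged to FGFRL1 (1.41), KALRN and PCDH15 (1.36 each), MEI4 (1.35) and DPP10 (1.32). All 5 were also higher outside the microglia, by 0.35 to 0.89 on the log2 scale, and rested mostly on the deep nuclei. PCDH15, a cadherin, had a log2 ratio of -0.81 among the shallow nuclei, with 1 UMI in the library labelled shFoxP2 and 6 in the shScr library.

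FOXP2 had 46 UMIs in the microglia of the library labelled shFoxP2 (3.05 per 10000) and 96 in those of the shScr library (3.02), a log2 ratio of 0.02 (-0.52 to 0.54). Deep nuclei held 43 of these UMIs in the library labelled shFoxP2 and 85 in the shScr library. FOXP1 had a log2 ratio of 0.11 (-0.03 to 0.25) over all microglia. The microglial genes RUNX1 (-0.29, -0.72 to 0.12), FLI1 (-0.04, -0.80 to 0.69) and TREM2 (-0.37, -1.21 to 0.41) had intervals that held 0. A difference in these 3 was not detectable at this depth, and the widest of these intervals reached -1.21. Intervals of other named genes lay below 0. IKZF1 was at -0.52 (-0.98 to -0.07), PTPRC at -0.71 (-1.38 to -0.09), PID1 at -0.66 (-1.06 to -0.28) and WDFY4 at -1.24 (-2.15 to -0.43). Outside the microglia their ratios were -0.89, -0.77, -0.05 and -1.90. Among the shallow microglia PTPRC was at -0.44 (-1.29 to 0.33) and PID1 at -0.26 (-0.80 to 0.25), intervals that held 0. IKZF1 was at -0.68 (-1.38 to -0.03) there and WDFY4 at -1.47 (-2.97 to -0.26). Deep nuclei supplied 120642 of 150617 microglia UMIs in the library labelled shFoxP2 and 215236 of 318081 in the shScr library. The part of this in the ratios over all microglia was not tested.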

How the data were processed

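The authors aligned and counted reads with Cell Ranger and clustered nuclei with Seurat. They deposited raw UMI counts per gene and nucleus, and a table that holds each nucleus's cluster and library, its UMI count, its mitochondrial percent as deposited, and its map position. The deposited nuclei all had 500 to 9997 UMIs and under 5% mitochondrial counts. A second deposited clustering covers the shScr library alone.

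The joint table names its libraries by codes that the labels do not give. One code holds the same nuclei, with identical counts, as the table of the shScr library alone, and the other was taken as the remaining sample, shFoxP2. Nuclei were taken from the joint clustering by cluster number. Counts were summed per library and cluster and given per 10000 UMIs. A gene was measured against the rest with at least 10 UMIs observed or expected in the cluster, and between libraries with at least 50 UMIs over both. A call is a 2-fold difference, and a sum of 0 was set to 3 counts. No p-value was computed, since each condition has 1 library, and SDs between replicates cannot be given. Intervals are exact at 95% and cover counting error only. Of 17430 gene rows 13403 have a symbol, 617 of them matched by gene ID to RefSeq (names only). Genes that share sequence or overlap may share counts, and strand use was not stated.

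Named genes were the 25 with the highest value of the lower library fold (at least 30 UMIs in the shScr and 10 in the shFoxP2 microglia), the 5 lowest, the 5 largest library ratios each way, and the members of the lists. Some items that these rules name are not reported here. 5 genes without a symbol among the top ranks were passed over. The microglia, lists and rules were chosen with earlier results of these data known. Doublet scores (Scrublet in scanpy 1.11.5) served for 1 alternative that leaves out the top 8%; its own threshold called 0 nuclei in the library labelled shFoxP2 and 991 in the shScr library. Intervals came from scipy 1.17.1, tables from pandas 2.3.3 and numpy 2.4.6 (Python 3.11.15), and the calculations were tested on simulated data. Promoter motifs were not searched. Alternatives were other minimum counts, depth limits, thinning to 500 UMIs, means over nuclei or clusters, and subsets of nuclei.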

Additional observations from a re-analysis of the deposited data

Results flagged for a closer look

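AFF2 lay on opposite sides of its level in the other clusters in the 2 libraries. In the library labelled shFoxP2 its level in microglia was 0.402 times that of all other clusters (0.214 to 0.688), and in the shScr library 1.58 times (1.28 to 1.92). In the shallow nuclei alone it was 0.466 times (0.0962 to 1.36, on 3 UMIs) in the library labelled shFoxP2 and 2.86 times (2.17 to 3.70) in the shScr library. In the deep nuclei it was 0.386 times (0.185 to 0.711) and 0.966 times (0.693 to 1.31) in these libraries. In neither depth set did both intervals exclude 1. With 1 library per condition the difference was not tested.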

How the results depend on the processing

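Counts of genes past 2-fold moved with the minimum count, since fewer or more genes could be measured. In the library labelled shFoxP2 (377 higher, 133 lower in microglia) a minimum of 5 UMIs gave 861 and 289 of 5878 genes, and of 20 UMIs 128 and 69 of 1651. In the shScr library (873 and 224) these gave 1387 and 378 of 8603, and 461 and 131 of 3484. Nuclei of at least 1000 UMIs gave 212 higher and 123 lower of 2724 genes in the library labelled shFoxP2. In the shScr library they gave 343 and 168 of 4438. Thinning to 500 UMIs gave 161 higher and 121 lower of 769 genes in the library labelled shFoxP2, and 718 and 385 of 2580 in the shScr library. The higher genes were then 20.9% and 27.8% of those measured, larger shares than without thinning. Means over nuclei gave 636 and 314 in the library labelled shFoxP2 and 1483 and 636 in the shScr library. Lower genes were 237 in the library labelled shFoxP2 and 420 in the shScr library against the mean of the other clusters. With nuclei under 2000 UMIs they were 298 of 803 genes and 621 of 3134. The share of microglia was 0.290% and 0.527% among nuclei of at least 1000 UMIs, 2.08% and 2.92% under 2000 UMIs, and 2.82% and 8.07% outside the neuron clusters as counted above, in the library labelled shFoxP2 and the shScr library.

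Between the libraries 36 genes were higher and 67 lower in the library labelled shFoxP2, of 1893 measured. A minimum of 20 UMIs gave 172 and 372 of 4452, and of 100 UMIs 8 and 16 of 840. Division by the ratio in all other nuclei gave 13 and 35 of 1893, and means over nuclei 69 and 109 of 1893. Nuclei of at least 1000 UMIs gave 16 and 35 of 1306, and nuclei under 2000 UMIs 4 and 19 of 409. Divided by the ratio in all other nuclei, WDFY4, CD2 and C1QA turned to 0.65, 0.41 and 1.49. Among nuclei under 2000 UMIs PCDH15 turned to -0.81. TGFB2 in the library labelled shFoxP2 turned to a log2 fold of 0.23 on thinning and 0.35 under 2000 UMIs, where its sum of 0 was set to 3. The other gene folds that had passed 2-fold kept their direction, and smaller folds were not checked for direction. Of 1966 gene folds under the alternatives, 1384 lay within the counting interval and 580 beyond it. Subsets under 2000 UMIs, without nuclei away from the main group and without nuclei with lymphocyte genes were chosen after seeing the data. No paired analysis was possible because each condition has 1 library. Depth limits genes with few UMIs in 65 nuclei.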
